A study of Mus musculus with 3 samples.

Results

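The platelet-derived growth factor (PDGF) family was followed through mouse aortic endothelial cells exposed to an oxidant: the receptor genes Pdgfra and Pdgfrb and the ligand genes Pdgfa, Pdgfb, Pdgfc and Pdgfd. These 6 genes, of 18287 listed, were picked by gene name, as a family chosen by its deposited log2 differences from control, so every difference from control below is a description. The cells were a purchased culture from mouse aorta, with 1 library of polyadenylated RNA in each of 3 groups: a control, cells given glucose oxidase, and cells given glucose oxidase with Et2HOBA. Glucose oxidase oxidizes the glucose of the medium and so releases hydrogen peroxide; it was used at 5 mU/mL for 30 min in both treated groups. Et2HOBA (ethyl-2-hydroxybenzylamine) was given at 0.2 mM for 24 h, and the labels do not state which exposure came before the other. The treatment labels also give no time from exposure to RNA harvest. Mouse strain, passage and number of animals behind the culture are not given in the sources used here, and no library given Et2HOBA alone was analysed here.

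PDGF ligands are secreted dimers. PDGF-A and PDGF-B are cut to their active form inside the cell, whereas PDGF-C and PDGF-D carry an extra CUB domain that proteases remove outside it. The ligands pair receptor tyrosine kinases at the surface: PDGF-A and PDGF-C act mainly on the alpha receptor (Pdgfra), PDGF-D mainly on the beta receptor (Pdgfrb), and PDGF-B on both. In vessels, endothelial cells are the classical source of PDGF-B, which recruits pericytes and smooth muscle cells carrying the beta receptor, while the alpha receptor is known as a marker of fibroblasts and other mesenchymal cells.

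With 1 library a group there was no replicate check and no test between conditions. The 95% intervals beside folds are exact binomial (Clopper-Pearson) intervals on reads, which set one library against another and hold no spread between cultures, only counting error. The libraries held 35969965 (control), 35005089 (glucose oxidase) and 40212212 reads (glucose oxidase with Et2HOBA) over the listed genes; the glucose oxidase counts were recovered from the deposited log2 differences. Folds are ratios of reads divided by a size factor per library, log2 ratios are on the log2(normalized count + 10) scale, which understates changes of low genes, and a gene was counted as higher or lower at a log2 ratio of 1 or more in size. Levels are compared between genes only as RPKM, reads per kilobase of a gene's annotated exons and per 1e+06 listed reads.

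The receptor gene Pdgfra (ENSMUSG00000029231.15, GRCm38/mm10 chromosome 5, 75152292 to 75198215, plus strand) showed the widest difference of the family. Its reads numbered 107 in the control library, 1325 in the glucose oxidase library and 2821 in the library given Et2HOBA as well. Control was thus the lowest and the Et2HOBA library the highest, with the glucose oxidase library between them. The normalized count was 13.2-fold higher after glucose oxidase than in control (95% interval 10.9 to 16.3), a log2 ratio of 3.60 that ranked 21 from the top of the 18287 genes. With Et2HOBA as well it was 26.2-fold above control (21.6 to 32.1), a log2 ratio of 4.58 ranking 10. In the authors' deposited table the log2 differences of Pdgfra were 2.55 and 4.07, on scales that differ between the tables. Its level was 0.297 RPKM in control, lower than that of most listed genes (percentile 19.7), and 3.78 and 7.0 RPKM in the treated libraries (percentiles 54.1 and 65.5). These levels divide by all 10024 annotated exon bases of the gene.

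**Figure D1:**
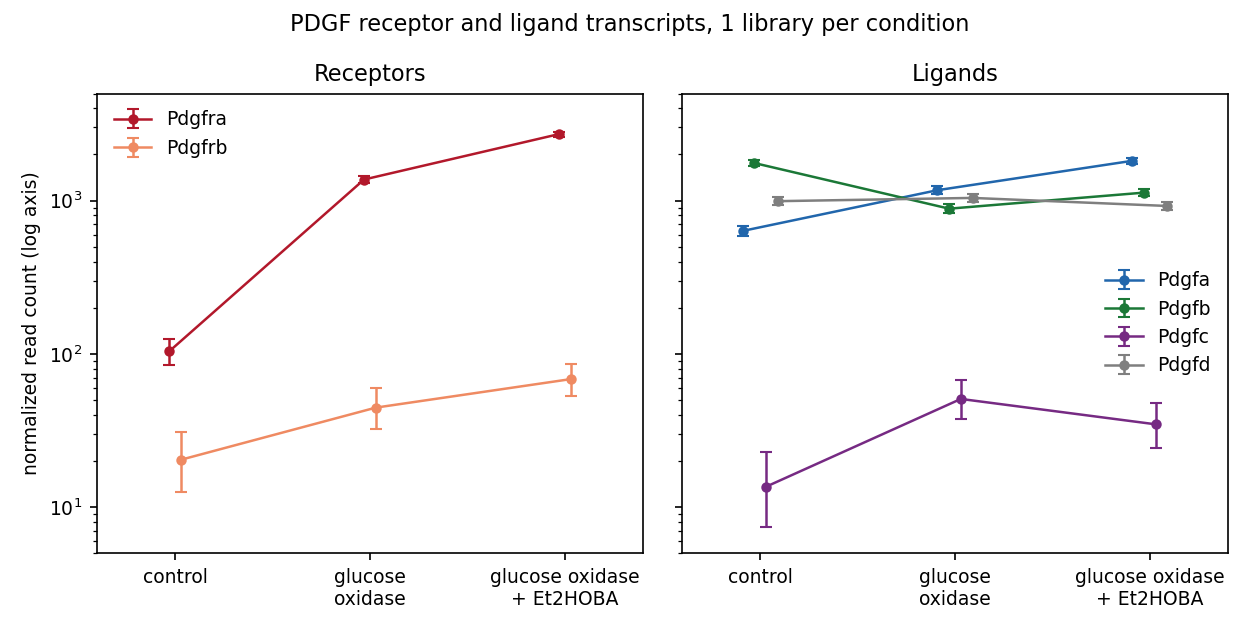
Normalized read counts of the 6 PDGF genes (log axis) in the control, glucose oxidase and glucose oxidase with Et2HOBA libraries, 1 point per library, with bars for 95% counting intervals and lines joining the points of a gene. Pdgfra runs from 104 to 1373 and 2716 normalized counts, Pdgfb is highest in control, and Pdgfd stays between 922 and 1041.

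The RefSeq promoter window of Pdgfra, from 250 bases before to 50 after the start of transcription (GRCm38.p6), is shown because this gene differed most, and is set beside those of Pdgfa, whose count was also highest in the Et2HOBA library, and Pdgfd, whose count differed least. They are printed on the gene's strand, with motif matches in capitals. The positions are chr5:75152001-75152300 (plus strand) for Pdgfra, chr5:138994232-138994531 and chr5:138994895-138995194 (minus strand) for the starts Pdgfa 1 and Pdgfa 2, and chr9:6168236-6168535 (plus strand) for Pdgfd.
Pdgfra: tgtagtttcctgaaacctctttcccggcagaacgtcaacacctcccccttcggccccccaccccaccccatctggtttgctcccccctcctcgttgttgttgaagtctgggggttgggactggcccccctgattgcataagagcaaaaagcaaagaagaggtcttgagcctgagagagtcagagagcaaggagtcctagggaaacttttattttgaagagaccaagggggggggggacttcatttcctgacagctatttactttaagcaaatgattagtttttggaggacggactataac
Pdgfa 1: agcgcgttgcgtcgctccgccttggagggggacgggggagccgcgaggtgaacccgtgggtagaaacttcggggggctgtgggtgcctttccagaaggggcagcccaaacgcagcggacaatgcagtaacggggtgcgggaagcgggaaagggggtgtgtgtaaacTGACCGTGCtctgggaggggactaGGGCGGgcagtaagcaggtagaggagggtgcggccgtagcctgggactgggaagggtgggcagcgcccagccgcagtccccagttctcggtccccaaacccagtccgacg
Pdgfa 2: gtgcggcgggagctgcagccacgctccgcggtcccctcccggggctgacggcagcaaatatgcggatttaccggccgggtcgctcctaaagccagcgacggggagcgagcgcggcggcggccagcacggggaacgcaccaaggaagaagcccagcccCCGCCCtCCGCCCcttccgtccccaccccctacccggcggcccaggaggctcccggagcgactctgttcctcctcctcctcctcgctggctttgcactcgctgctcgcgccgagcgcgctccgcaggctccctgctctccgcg
Pdgfd: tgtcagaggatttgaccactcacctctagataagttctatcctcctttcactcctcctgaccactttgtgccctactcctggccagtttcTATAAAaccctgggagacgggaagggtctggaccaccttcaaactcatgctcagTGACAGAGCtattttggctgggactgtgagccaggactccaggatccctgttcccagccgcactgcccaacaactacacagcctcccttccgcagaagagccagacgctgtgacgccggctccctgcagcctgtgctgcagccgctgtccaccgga
On both strands, 7 motifs were searched. They were the EGR1 site GCGNGGGCG (in 5.55% of 32851 mouse promoters of this length), the GC box GGGCGG (35.7%), the AP-1 site TGANTCA (7.81%), the ATF4 composite TGATGNAAN (3.95%), the NRF2 element TGACNNNGC (12.4%), the hypoxia element ACGTG (19.6%) and the TATA box TATAAA (13.6%). A GC box can overlap an EGR1 site. The Pdgfra window held 0 matches, with a GC content of 51%. Window Pdgfa 1 (GC content 67%) held an NRF2 element at position -84 and a GC box at -60, counted from the start of transcription. Pdgfa 2 (73.3%) held GC boxes on the reverse strand at -93 and -86. The Pdgfd window (56.7%) held a TATA box at -160 and an NRF2 element at -106. The Pdgfc window (55%), which is not printed here, held an NRF2 element at -170. Median GC content over all the windows was 52.7%. A match is a description of letters and not a bound site.

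The other receptor gene, Pdgfrb (ENSMUSG00000024620.11, GRCm38/mm10 chromosome 18, 61045150 to 61085061, plus strand), was among the lower listed genes in every library. Its reads numbered 21 in control, 43 with glucose oxidase and 71 with Et2HOBA as well, in the same order as Pdgfra. These reads gave 0.107, 0.224 and 0.322 RPKM, at percentiles 9.48, 20.3 and 22.96. The fold over control was 2.19 (95% interval 1.27 to 3.88) after glucose oxidase, with a log2 ratio of 0.85, and 3.36 (2.04 to 5.76) with Et2HOBA, with a log2 ratio of 1.37. The intervals are wide because so few reads were counted. In the authors' deposited table its log2 differences were 0.30 and 0.81. Per length, Pdgfra stood above Pdgfrb by a factor of 2.78 in control, 16.8 in the glucose oxidase library and 21.7 with Et2HOBA, so that Pdgfra made up 73.6%, 94.4% and 95.6% of the summed receptor RPKM.

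Because both receptors are known from mesenchymal cells, markers of such cells were read in the same libraries. Of 11 mural cell markers (smooth muscle and pericyte), 6 were listed, with 66 reads in all in control, 147 in the glucose oxidase library and 170 with Et2HOBA. Their summed level was 0.429, 0.815 and 0.689 RPKM in the same order of libraries. Myh11, the smooth muscle myosin heavy chain, had 19, 35 and 73 reads, and Cspg4, the pericyte proteoglycan NG2, had 2, 15 and 25. Of the contractile smooth muscle genes, Acta2 had 8, 18 and 13 reads and Tagln 9, 9 and 4. Notch3 had 20, 61 and 46 reads and Des 8, 9 and 9. The pericyte genes Rgs5, Kcnj8, Abcc9 and Higd1b were not listed. Of 10 fibroblast markers, 3 were listed; the summed level was 5.50, 5.93 and 4.33 RPKM, nearly all of it from Pi16 (1231, 1284 and 1085 reads). The collagen gene Col1a1 had 28, 30 and 23 reads, and Col3a1 2, 12 and 0, while Dcn, Lum and Col1a2 were not listed. Apart from Pi16, no listed mural or fibroblast marker had more than 73 reads in a library. Summed mural reads were higher in the treated libraries, as Pdgfra and Pdgfrb were, but the 6 genes did not share 1 order of libraries. Per length, the mural sum was lower with Et2HOBA than with glucose oxidase alone, though its reads were more. Between these libraries, Notch3 stood at 0.701-fold (interval 0.467 to 1.04), Acta2 at 0.671-fold (0.302 to 1.45) and Tagln at 0.413-fold (0.0930 to 1.48). These counting intervals include no difference, as do those of Cspg4 and Des. Myh11 was 1.94-fold higher with Et2HOBA (1.28 to 2.99). The direction of the mural sum between these libraries is therefore not settled at this depth, and it is not set against the receptors. The part of mural cells or fibroblasts in the receptor values was not tested. All 11 endothelial markers were listed, with a summed level of 2670, 1689 and 1384 RPKM; 3 were lower than control at the limit after glucose oxidase, where 8.6% of all genes were lower, and 5 with Et2HOBA, where 8.04% were. In RNA from a whole culture, fewer cells of a type and less RNA per cell cannot be told apart. Platelet and megakaryocyte markers, 3 of 5 listed, summed to 18.3, 9.31 and 9.72 RPKM, and of 7 leukocyte markers only Cd68 (8215, 17067 and 27799 reads) and Lyz2 (186, 76 and 86 reads) were listed.

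The related receptor genes Kit and Kdr lie 377 and 735 kb from Pdgfra, and Csf1r lies beside Pdgfrb. These neighbours were looked at after their values had been seen. Kit, the stem cell factor receptor, had 409, 168 and 120 reads in the control, glucose oxidase and Et2HOBA libraries, with log2 ratios against control of -1.14 and -1.69. Kdr, the main endothelial VEGF receptor, had 61640, 27584 and 24227 reads, with log2 ratios of -1.06 and -1.36. Both were therefore lower where Pdgfra was higher, and their control levels, at 1.28 and 189.8 RPKM, were above its 0.297. On the other side of Pdgfra, with a gap of 108 kb, Chic2 had 1308, 2110 and 3966 reads and log2 ratios of 0.78 and 1.58. Of the other listed protein-coding genes within 1000 kb of Pdgfra, Fip1l1 was higher in both comparisons (0.44 and 0.82). Scfd2 (-0.35 and -0.78), Srd5a3 (-0.21 and -0.37) and Tmem165 (-0.11 and -0.11) were lower. Rasl11b had few reads, at 11, 4 and 17. Csf1r, the macrophage growth factor receptor 15.5 kb from Pdgfrb, had 6, 12 and 10 reads, too few to place.

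Among the ligands, Pdgfa (ENSMUSG00000025856.15, GRCm38/mm10 chromosome 5, 138976014 to 138997370, minus strand) was higher in both treated libraries. The library counts were 654 in control, 1129 with glucose oxidase and 1889 with Et2HOBA, the same order as both receptor genes. The fold over control was 1.85 (95% interval 1.67 to 2.04), a log2 ratio of 0.87, after glucose oxidase and 2.87 (2.62 to 3.14), a log2 ratio of 1.51, with Et2HOBA. In the authors' deposited table the differences were 0.73 and 1.42. An antisense gene, 6330403L08Rik, covers 813 bases (26.1%) of the exons of Pdgfa and had 312, 392 and 512 reads of its own. The library kit keeps strand, but whether the counting used it is not given in the sources used here, so a share of either gene's reads could belong to the other.

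Pdgfb (ENSMUSG00000000489.7, chromosome 15, 79995874 to 80014977, minus strand), the ligand that endothelial cells send to mural cells, went the other way. Control had 1815 reads, glucose oxidase 855 and the library with Et2HOBA 1171. Control was the highest library, and the library with Et2HOBA lay between it and the glucose oxidase library. The normalized count after glucose oxidase was 0.504 of control (95% interval 0.464 to 0.547), a log2 ratio of -0.98, which is just short of the limit. With Et2HOBA it was 0.641 of control (0.595 to 0.690), a log2 ratio of -0.64. In the authors' deposited table the differences were -0.86 and -0.62. Beside it, the platelet and endothelial marker sums given above were also lower in the treated libraries than in control, though not every marker was. Itga2b was 1.19-fold and 1.18-fold above control, Emcn 1.26-fold and 1.47-fold, and Cdh5 1.14-fold with Et2HOBA only. The other listed markers of both kinds were lower in both comparisons. With Et2HOBA the endothelial sum was lower than with glucose oxidase alone, while Pdgfb was higher. For the platelet markers a difference between these libraries was not detectable at this depth. Their folds were 1.17 for Pf4 (95% interval 0.954 to 1.45), 0.929 for Gp9 (0.561 to 1.54) and 0.994 for Itga2b (0.847 to 1.17). The part of endothelial cells and platelets in the Pdgfb values was not tested.

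Of the ligands with a CUB domain, Pdgfc (ENSMUSG00000028019.9, chromosome 3, 81036416 to 81214040, plus strand) was barely expressed and Pdgfd (ENSMUSG00000032006.15, chromosome 9, 6168584 to 6378850, plus strand) was nearly level. Pdgfc had 14 reads in the control library, 49 with glucose oxidase and 36 with Et2HOBA, so that control was lowest and the glucose oxidase library highest. Its fold over control was 3.74 (95% interval 2.03 to 7.34), a log2 ratio of 1.37, and 2.56 (1.34 to 5.13), a log2 ratio of 0.92. Even so it stayed at 0.0765 to 0.275 RPKM. Pdgfd had 1023, 1005 and 958 reads in the same order of libraries. Its folds over control were 1.05 (0.962 to 1.15) and 0.930 (0.851 to 1.02), and both intervals include equal levels. The authors' deposited table gave Pdgfc 0.48 and 0.50 and Pdgfd 0.06 and -0.10.

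Ordered by RPKM, the levels in control were Pdgfb 12.1, Pdgfd 9.02, Pdgfa 5.83, Pdgfra 0.297, Pdgfrb 0.107 and Pdgfc 0.0765. After glucose oxidase the order was Pdgfa 10.3, Pdgfd 9.10, Pdgfb 5.87, Pdgfra 3.78, Pdgfc 0.275 and Pdgfrb 0.224. With Et2HOBA it was Pdgfa 15.1, Pdgfd 7.55, then Pdgfra and Pdgfb, both at 7.0, followed by Pdgfrb 0.322 and Pdgfc 0.176. Neighbours whose counting intervals overlapped were Pdgfrb and Pdgfc in control and after glucose oxidase, and Pdgfd, Pdgfra and Pdgfb with Et2HOBA.

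The sum of the ligand levels was 27.0 RPKM in control, 25.6 in the glucose oxidase library and 29.8 with Et2HOBA, and its make-up differed. RPKM divides by total listed reads and not by the size factors behind the folds, so sums compared between libraries depend on that choice. Shares within a library do not. Pdgfa made up 21.6% of the sum in control, 40.4% in the glucose oxidase library and 50.6% with Et2HOBA. Pdgfb made up 44.8%, 22.9% and 23.5%. The level of Pdgfb was thus 2.08 times that of Pdgfa in the control library, 0.568 times after glucose oxidase and 0.465 times with Et2HOBA. Pdgfd held 33.3%, 35.6% and 25.4%, and Pdgfc no more than 1.07%. The summed level of the receptors was 0.403, 4.0 and 7.32 RPKM, lower than the ligand sum in every library. RNA levels of a ligand and its receptor are not amounts of protein, and no protein was measured here.

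**Figure D2:**
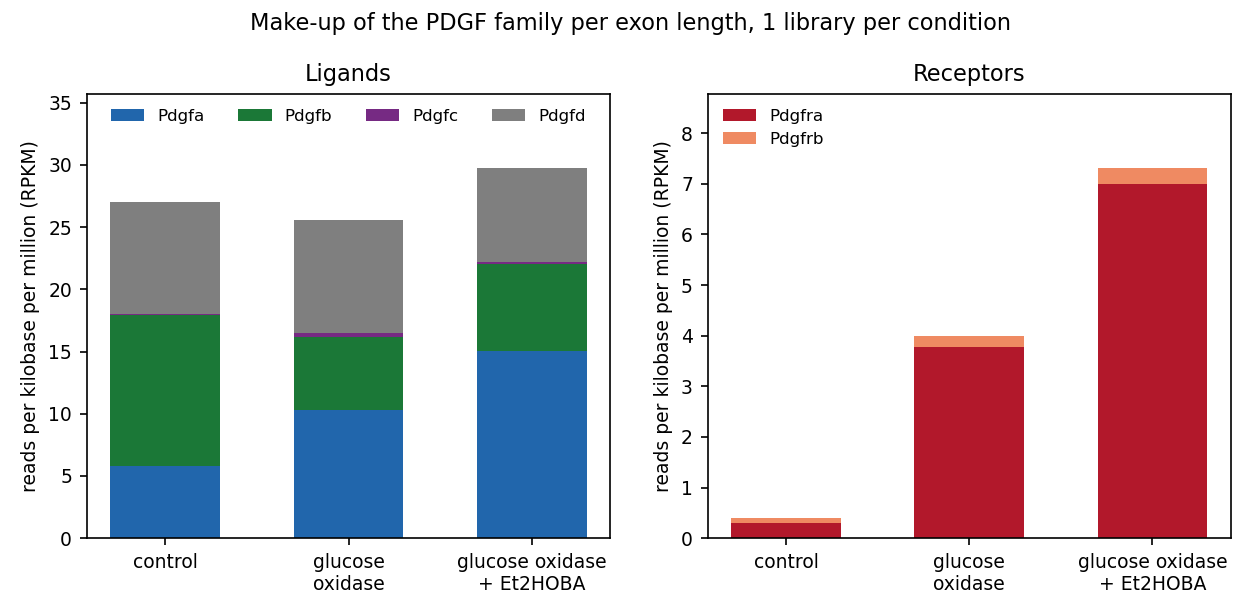
Stacked levels in RPKM of the 4 ligand genes and of the 2 receptor genes in each of the 3 libraries, 1 bar per library. The ligand bars stand at 27.0, 25.6 and 29.8 RPKM while Pdgfa widens and Pdgfb narrows, and the receptor bars go from 0.403 to 7.32 RPKM, nearly all Pdgfra.

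Counted at the limit of 1 log2 unit, 2 of the 6 genes (Pdgfra and Pdgfc) were higher after glucose oxidase than in control and 0 were lower, where 4.07% of all 18287 genes were higher and 8.6% lower. With Et2HOBA, 3 of the 6 (Pdgfra, Pdgfa and Pdgfrb) were higher than control and 0 lower, where 6.66% of all genes were higher and 8.04% lower. Scaling by total counts instead gave 5.403% higher and 10.05% lower for this comparison. Nothing is read from these counts against the background, since the genes were chosen with these differences known. The median log2 ratio of the 6 genes was 0.86 and 1.15, and that of all genes -0.01 after glucose oxidase and -0.00015 with Et2HOBA. Both comparisons share the control library.

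**Figure D3:**
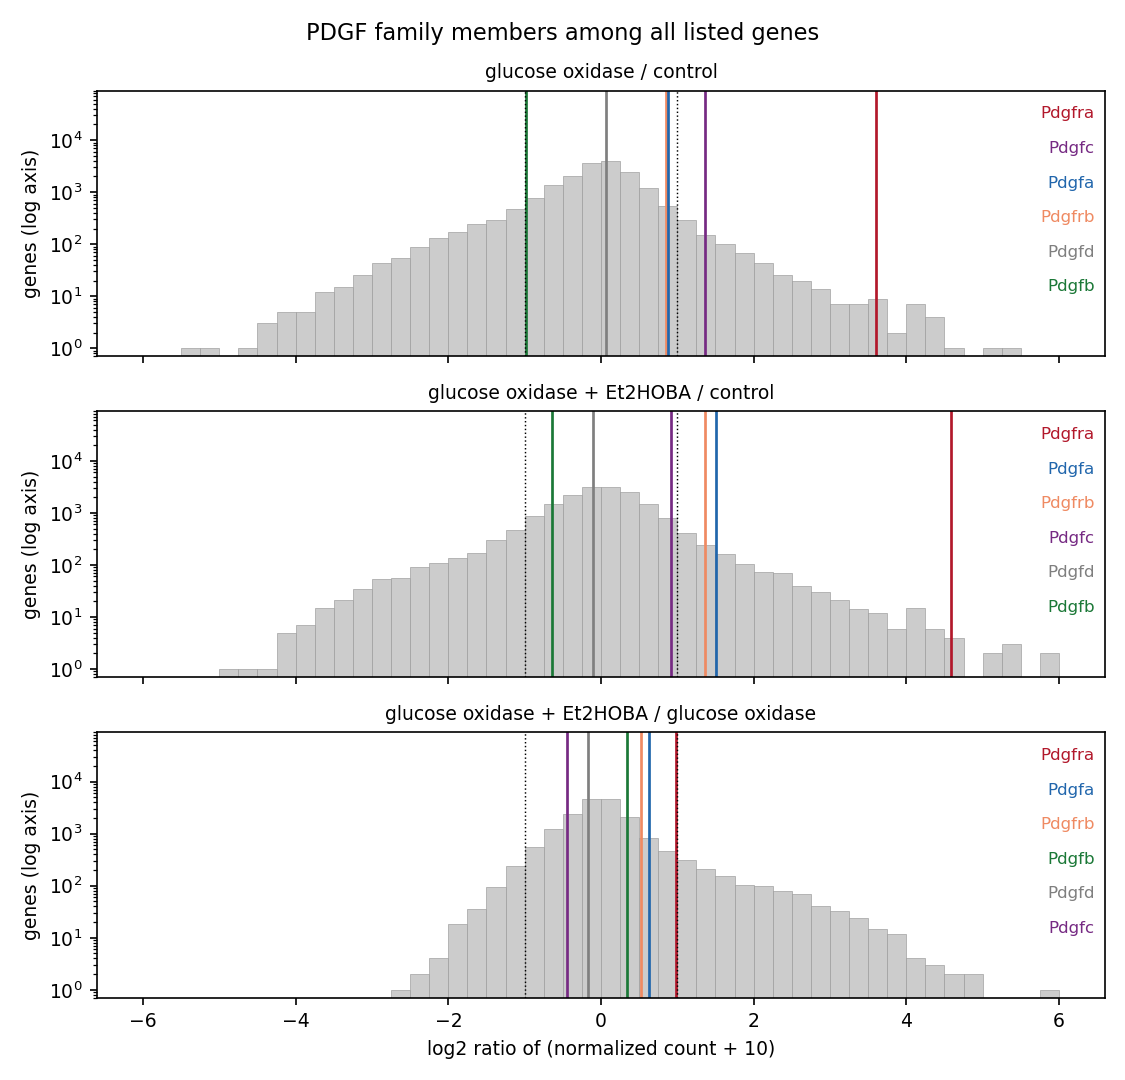
Number of genes by log2 ratio (log2 of normalized count plus 10) in the 3 comparisons between libraries, with the 6 PDGF genes marked. Against control, Pdgfra lies far out at 3.60 and 4.58, Pdgfd lies near 0, and Pdgfb is on the lower side at -0.98 and -0.64.

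The libraries that both received glucose oxidase differ in their labels by Et2HOBA. With 1 library each, that difference cannot be told apart from one between cultures or libraries. Of the 6 genes, 0 were higher and 0 lower at the limit with Et2HOBA than without, where 6.39% of all genes were higher and 2.15% lower, and none of the 6 is among the 7 genes of the authors' deposited table for this comparison. Pdgfra came closest, 1.98-fold higher with Et2HOBA (95% interval 1.85 to 2.11) at a log2 ratio of 0.98. Pdgfa was 1.56-fold (1.44 to 1.68), Pdgfrb 1.53-fold (1.04 to 2.30) and Pdgfb 1.27-fold higher (1.16 to 1.39), and Pdgfd stood at 0.886 of the glucose oxidase library (0.810 to 0.969). For Pdgfc, at 0.683 (0.431 to 1.07), a difference was not detectable at this depth. In the library with Et2HOBA, Pdgfra, Pdgfa and Pdgfrb thus stood farther from control than in the glucose oxidase library, and Pdgfb nearer to it; for Pdgfc, nearer by its values, the counting interval includes no difference. The median over the 6 genes was 0.43, and over all genes 0.

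**Figure D4:**
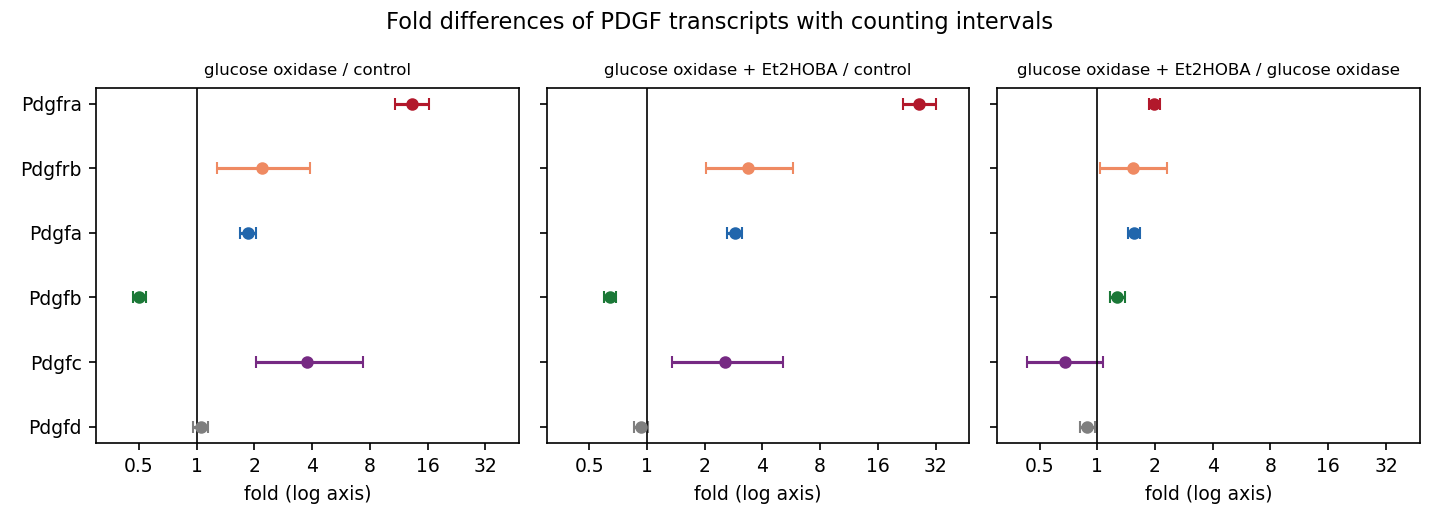
Fold of normalized count (log axis) for each of the 6 PDGF genes in the 3 comparisons between libraries, with bars for exact 95% counting intervals. Pdgfra is 13.2-fold and 26.2-fold above control and 1.98-fold higher with Et2HOBA than without, while Pdgfb lies below control in both comparisons.

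Genes that act around the PDGF family were read from 8 lists, with the same limit and the background shares given above. Of 12 genes for ligand processing and binding, 9 were listed, and 1 was higher and 1 lower than control in both treated libraries. Lrp1, a large endocytic receptor that binds PDGF-B and modulates the beta receptor, had 3271, 8897 and 13804 reads, and was 2.91-fold and 4.19-fold above control. St14 (matriptase), a protease able to cut PDGF-C and PDGF-D, had 738, 201 and 75 reads, with log2 ratios of -1.73 and -3.14. Between the treated libraries it was also lower with Et2HOBA (log2 ratio -1.41). The list's median log2 ratios against control were -0.18 and -0.26.

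Of 19 genes that relay the receptor signal, 0 were past the limit after glucose oxidase, and with Et2HOBA 2 were higher and 1 lower. Src, the kinase recruited to active receptors, had 4368, 6191 and 9092 reads and a log2 ratio of 1.05 with Et2HOBA. The phosphoinositide 3-kinase subunits differed in direction: the catalytic Pik3cb had 398, 555 and 887 reads and a ratio of 1.13, and the regulatory Pik3r1 5097, 3397 and 2493 reads and a ratio of -1.04. Median log2 ratios of the list were 0.05 and 0.01.

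Of 12 genes that restrain receptor signalling, 2 were higher after glucose oxidase and 3 with Et2HOBA, and 0 were lower in either. Spry2, a Sprouty inhibitor of the Ras pathway, had 275, 650 and 1359 reads, 2.53-fold and 4.91-fold above control. Cblb, a ubiquitin ligase that sends receptors for degradation, had 753, 1446 and 2458 reads, 2.05-fold and 3.24-fold above control. The phosphatase Ptpn12 had 7031, 10265 and 14633 reads and a log2 ratio of 1.05 with Et2HOBA. The list's medians were 0.00 and 0.36, over genes that lay on both sides of control: Spry1, for one, had a log2 ratio of -0.60 after glucose oxidase. Of the 12, Spry4 was higher with Et2HOBA than with glucose oxidase alone, at a log2 ratio of 1.09.

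Of 12 regulators known to act on PDGF ligand genes, 11 were listed, 1 was higher in both treated libraries and 1 was lower with Et2HOBA. Klf5, a zinc finger factor known to activate Pdgfa, had 52, 460 and 854 reads, 9.46-fold (95% interval 7.09 to 12.9) and 16.3-fold (12.3 to 22.0) above control. Ets1, an endothelial ETS factor, had 9458, 5005 and 4207 reads, with log2 ratios of -0.82 and -1.18. Egr1, an immediate early activator of Pdgfa and Pdgfb, fell short of the limit at -0.36 and -0.99.

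The VEGF genes are the other branch of the superfamily, and all 8 were listed. After glucose oxidase 1 was higher and 2 lower than control, and with Et2HOBA 2 were higher and 2 lower. Vegfa, the main endothelial growth factor, had 1219, 3413 and 5204 reads (log2 ratios 1.57 and 2.08), and Pgf, placental growth factor, 3078, 4002 and 9055 (0.47 and 1.54). Vegfc, the lymphatic growth factor, had only 77, 24 and 13 reads (-1.28 and -1.91), and Kdr was the other lower gene. Of 7 other class III receptor kinases and ligands, 5 were listed, and 1, Kit, was lower in both comparisons.

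Among 7 other signals from endothelium to mural cells, 2 were higher after glucose oxidase, and with Et2HOBA 3 were higher and 1 lower. Hbegf, a membrane-bound EGF receptor ligand, had 297, 801 and 2708 reads, 2.88-fold and 9.06-fold above control. Ccn2, a matricellular protein, had 344, 731 and 2483 reads, 2.27-fold and 7.17-fold above control. The Notch ligand Jag1 had 5337, 8265 and 20718 reads, 1.66-fold and 3.86-fold above control. These 3 were also past the limit between the treated libraries, with log2 ratios of 1.64, 1.65 and 1.22, whereas Pdgfb was at 0.34. Edn1, endothelin-1, had 57, 37 and 19 reads and a ratio of -1.21 with Et2HOBA.

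Pdgfb is known as a gene of endothelial tip cells, the leading cells of a sprout. Of 8 other tip cell genes 6 were listed, and they did not share a direction: 2 were higher and 2 lower after glucose oxidase, and 3 higher and 1 lower with Et2HOBA. Plaur, the urokinase receptor, had 837, 2944 and 4678 reads (log2 ratios 1.90 and 2.46), and the netrin receptor gene Unc5b 2329, 4568 and 5910 (1.06 and 1.33). The Notch ligand Dll4 had 390, 168 and 194 reads (-1.08 and -0.98), and the peptide Apln 5772, 2661 and 1750 (-1.02 and -1.73). Angpt2, a vessel-destabilizing ligand, had 9, 17 and 38 reads and ratios of 0.56 and 1.32.

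**Figure D5:**
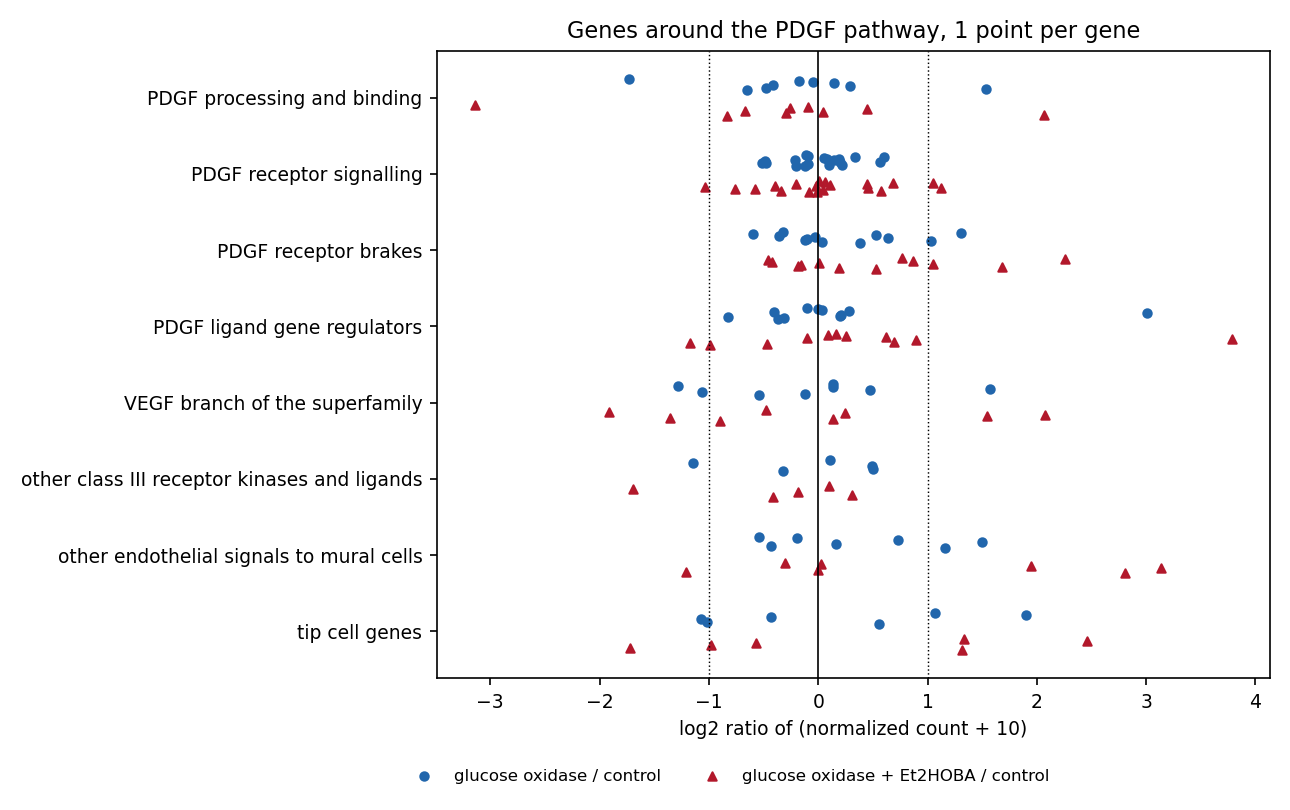
Log2 ratios to control (log2 of normalized count plus 10) of every listed gene of the 8 lists around the PDGF family, 1 point per gene, for glucose oxidase and for glucose oxidase with Et2HOBA. Most points lie within 1 unit of 0. Klf5 (3.01 and 3.78) lies farthest above 0 in both comparisons and St14 (-1.73 and -3.14) farthest below.

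For each of the 6 genes the closest patterns were sought among 11511 other protein-coding genes with a mean normalized count of 30 or more, as the distance between their pairs of log2 ratios to control over the 3 libraries. Genes near Pdgfra were few, with 0 within a distance of 0.1, and the nearest were Mmp13 (distance 0.149), Rad54b (0.238) and Il12b (0.288). Mmp13, a collagenase, had 18, 334 and 620 reads, and Rad54b, a DNA repair gene, 131, 1754 and 2965. Pdgfb had 2 genes within 0.1, the nearer being Ilk, the integrin-linked kinase, with 77, 30 and 49 reads. Pdgfc had 4, led by Ano1 and Notch3. Pdgfa had 14, led by the mismatch repair gene Msh3 with 362, 629 and 1057 reads, and Pdgfrb had 27, led by Zdhhc18. Around Pdgfd, near 0 in both comparisons, there were 491. These numbers largely restate how far each gene lies from 0, since few genes lie far out and many near 0. The mean was taken over all 3 libraries. Pdgfc, Pdgfrb, Mmp13, Il12b, Ano1 and Notch3 had control counts below 30 and so passed only through the treated libraries. After glucose oxidase, the log2 counting intervals of all 6 genes were wider than 0.1. They ran from 3.44 to 4.02 for Pdgfra, 0.74 to 1.03 for Pdgfa, -1.11 to -0.87 for Pdgfb and -0.06 to 0.20 for Pdgfd. Those of Pdgfc, 1.02 to 2.88, and Pdgfrb, 0.35 to 1.96, were the widest. Which genes lie nearest to any of the 6 is therefore not settled by these counts. With 1 library a group the closest patterns are shared orders of 3 values.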

How the data were processed

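RNA of 3 mouse aortic endothelial cell libraries was read with a stranded mRNA kit, per the labels' protocols. STAR, featureCounts and build mm10 are named in the submitters' processing notes, and versions and strand setting are not given in the sources used here. The authors deposited raw read counts of the control and the glucose oxidase with Et2HOBA libraries, per the file headers, and log2 differences for each pair of libraries. The deposited log2 differences follow DESeq2's variance-stabilizing transformation, which compresses low counts and acts on abundant genes like a pseudocount of 202 (glucose oxidase against control) or 71.1 (with Et2HOBA against control), so they are not comparable between tables. When it was inverted from the control counts, the glucose oxidase values came within 0.01 of whole reads for 100% of 18258 genes matched by unique symbol. When 1 read was added to the control counts, 3.30% came out whole. The inversion, ratios and intervals were tested on simulated data. That test used the transformation constants already fitted to the deposited differences, so the fitting of those constants was not tested by it.

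Size factors (median of ratios over the 3 libraries; R 4.3.3, DESeq2 1.42.0) were 1.03, 0.965 and 1.04. A pseudocount of 10 and a limit of 1 log2 unit were used, and no count model was fitted, since 1 library a group gives no estimate of spread. Exon lengths and overlaps came from GENCODE release M21, where 17878 gene IDs had the same version and position. Over 50-base stretches shared with other genes, Pdgfra had 0.177% and the other PDGF genes 0%. The RefSeq promoter table held windows for 4 of the 6 genes on the chromosomes used here. Named genes were all 6 PDGF genes and, per list, the genes past the limit in either comparison with control, at most 6. Egr1, Spry1, Spry4, Csf1r, Chic2 and the other genes near Pdgfra were named after their values were seen. Ccn2 was entered in its list under its older symbol. The members and lists were chosen with earlier results of these data known. Alternatives were other pseudocounts, scalings, limits, the deposited scale and genes without shared stretches.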

Additional observations from a re-analysis of the deposited data

How the results depend on the processing

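The number of PDGF genes past the limit depended mainly on the limit. After glucose oxidase it was 2, with 5 at a limit of 0.5 and 1 when the limit was 2; with Et2HOBA it was 3, and 5 and 1 at those limits; between the treated libraries it was 0, and 3 at a limit of 0.5. After glucose oxidase it was also 1 on the deposited scale and 1 over genes with no shared 50-base stretch, since that filter drops Pdgfra. With Et2HOBA both of these settings gave 2 against control. With a pseudocount of 1 or none Pdgfrb joined after glucose oxidase and Pdgfc with Et2HOBA, and with total-count scaling Pdgfb joined after glucose oxidase at a log2 ratio of -1.04. Total-count scaling moved the median of all genes to -0.06, -0.13 and -0.08 in the 3 comparisons. The shares of all genes past the limit moved too. On the deposited scale 1.51% were higher and 2.505% lower after glucose oxidase, 4.495% and 5.17% with Et2HOBA, and 0.197% and 0.0383% between the treated libraries. With no pseudocount the shares were 8.53% and 16.2%, 10.9% and 15.1%, and 11.7% and 8.09%. Of 18 ratios per setting, 0 changed sign under the pseudocounts, the total-count and TMM scalings (edgeR 4.0.16) and the deposited scale. Sizes were less steady. On the deposited scale 7 of the 18 moved beyond counting error, all ratios of Pdgfra among them (3.60 became 2.55 after glucose oxidase). Under total-count scaling 3 did, and under the pseudocounts and TMM 0. No paired analysis was possible because each group had 1 library, and for the same reason no library could be left out. Depth limits Pdgfc and Pdgfrb, at 14 to 71 reads, the most.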
